A study of Mus musculus with 4 samples.

Results

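The genes described here encode the protein translocation, folding, quality control and stress-response machinery of the endoplasmic reticulum (ER). The list holds 54 gene symbols chosen by function, of the 19938 genes that the arrays measured through a probe set assigned to a single gene, and 52 of the 54 had such a probe set. Srp54a and Sec61g were read only by probe sets shared with other genes and have no value of their own, and Ero1l and Ero1lb were matched under their current symbols, Ero1a and Ero1b. The cells were mature plasmacytoid dendritic cells (pDCs), specialised producers of type I interferon, sorted from mouse spleen at steady state. The 4 samples, each on its own whole-transcript array, were 2 of Flt3 KO genotype and 2 wild type (WT). The product of Flt3 is the cell-surface kinase that receives the FLT3 ligand signal, on which dendritic cell development depends. The sources used here do not give the strain, age or sex of the mice, the part of Flt3 that the allele lacks, or whether a biological replicate was 1 animal or a pool, so p-values measure the spread between these samples. Spleens of both genotypes had been digested with collagenase B and DNase.

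Secreted and membrane proteins enter the ER while they are being made. The signal recognition particle brings the ribosome to the Sec61 channel, signal peptidase removes the leader, oligosaccharyltransferase adds glycans, and chaperones and disulfide isomerases fold the chain. Chains that fail are passed back to the cytosol and destroyed, a route called ER-associated degradation, and a load of unfolded chains raises transcription of this machinery through the unfolded protein response, whose sensors are encoded by Ern1, Atf6 and Eif2ak3. Plasmacytoid dendritic cells are known for an extensive ER.

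The promoters of the list were searched for the DNA elements through which that response acts. Windows of 300 bases, 250 before and 50 after the start site, were available from RefSeq (GRCm38.p6) for 47 of the 54 genes. They were searched on both strands for the ER stress response element (ERSE), spelled CCAAT, 9 bases of any kind and CCACG, which is bound by NF-Y together with ATF6 or XBP1. It was present in the windows of 9 of the 47 genes (18.4% of 49 windows), compared with 0.119% of all 32851 windows. The matches are printed 5′ to 3′ in the direction of the gene with the element in capitals. Where the element lies on the opposite strand, its letters read as the reverse complement, starting with CGTGG. Hsp90b1 has 2 matches, and each of the other genes has 1.
Hspa5, chr2:34772017-34772051, plus strand: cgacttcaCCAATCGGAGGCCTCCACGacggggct
Hsp90b1, chr10:86705525-86705559, minus strand: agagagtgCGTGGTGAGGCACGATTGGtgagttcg
Hsp90b1, chr10:86705630-86705664, minus strand: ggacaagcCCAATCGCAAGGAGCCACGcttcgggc
Calr, chr8:84847067-84847101, minus strand: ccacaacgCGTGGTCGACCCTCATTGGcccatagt
Canx, chr11:50325792-50325826, minus strand: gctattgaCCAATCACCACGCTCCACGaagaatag
Pdia6, chr12:17266483-17266517, plus strand: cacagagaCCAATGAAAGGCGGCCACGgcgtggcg
Dnajc3, chr14:118937819-118937853, plus strand: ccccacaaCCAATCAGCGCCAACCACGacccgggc
Creld2, chr15:88819512-88819546, plus strand: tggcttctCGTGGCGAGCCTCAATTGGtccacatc
Ero1b, chr13:12565674-12565708, plus strand: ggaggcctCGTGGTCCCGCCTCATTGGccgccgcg
Syvn1, chr19:6046524-6046558, plus strand: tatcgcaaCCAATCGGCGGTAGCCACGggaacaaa

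A related element, ERSE-II (ATTGG, 1 base of any kind and CCACG, both strands), was found in 2 of the 47 genes (4.08% of 49 windows), compared with 0.0365% of all windows. These are Herpud1, the only member that passed the test below, and Dnajb11.
Herpud1, chr8:94386369-94386395, plus strand: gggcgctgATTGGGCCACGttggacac
Dnajb11, chr16:22857844-22857870, plus strand: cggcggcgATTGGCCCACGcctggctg

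The Herpud1 window is shown whole because Herpud1 was the only member called. That is 1.92% of the members, compared with 2.39% of all genes, and a tie between its elements and its call was not tested. The upstream capitals mark the reverse complement of TGATGCAA, a CARE element of the kind bound by ATF4, 105 bases before the start site. The capitals nearer the start mark ERSE-II, whose last base lies 42 bases before it.
Herpud1, chr8:94386179-94386478, plus strand: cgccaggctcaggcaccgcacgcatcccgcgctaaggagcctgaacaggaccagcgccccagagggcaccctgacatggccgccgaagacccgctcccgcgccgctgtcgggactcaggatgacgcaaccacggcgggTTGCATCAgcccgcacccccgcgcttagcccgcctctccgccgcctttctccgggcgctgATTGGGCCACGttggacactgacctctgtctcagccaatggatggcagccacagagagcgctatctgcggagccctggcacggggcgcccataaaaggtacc

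CARE was found in 0.895% of all windows and, among the members, in Herpud1. A further element, UPRE (TGACGTGG), was found in 0.676% of all windows and in 0 of the 47 genes. The motifs do not overlap each other in the member windows. A match is a run of letters, not a measured binding site.

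The arrays were compared on the log2 scale. A difference is the Flt3 KO mean minus the WT mean, fitted with limma over all 19938 genes with an intensity trend, with p-values adjusted by the Benjamini-Hochberg method and a threshold of 0.05. The smallest two-sided p that exact permutation of 2 and 2 samples allows is 0.3333, so the calls rest on variance that limma shares across genes. Flt3 itself read 8.46 and 8.61 in Flt3 KO samples, against 10.71 and 10.77 in WT samples, a difference of −2.21. Of the 12 measured markers of pDCs, 7 fell in Flt3 KO cells, among them the toll-like receptor gene Tlr7 (−0.49) and the chemokine receptor gene Ccr9 (−0.43), none rose, and the lineage gene Siglech stayed bright at 12.51 and 12.53 in Flt3 KO samples, against 12.65 and 12.64 in WT samples. Of 13 markers of monocytes and macrophages, 5 rose, including Cd14 (1.08) and Ccr2 (0.70), and 12 had differences above 0. The 1 below 0 was Cd68 (−0.11, not passed), with 10.08 and 10.12 in Flt3 KO samples, against 10.19 and 10.22 in WT samples. The summed intensity of the 13 was 5581 and 7170 in Flt3 KO samples, against 4865 and 4520 in WT samples. None of the 13 was listed at 0. Of 12 markers of conventional dendritic cells, 2 rose, Tmem176b (0.90) and Tmem176a (0.89), and 1 fell, Flt3 itself. No marker of B cells, T and NK cells, neutrophils or erythroid cells passed. Differences were above 0 for 7 of 9 T and NK cell markers and 2 of 9 B cell markers. The same held for 1 of 6 neutrophil markers and 1 of 2 erythroid markers.

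The ER machinery differed little between the genotypes. Of the 52 measured members, 1 fell in Flt3 KO pDCs, 0 rose and 51 did not pass, or 1.92% called, compared with 2.39% of all genes. Among all genes 1.31% were lower and 1.08% higher. Every member's 95% interval lay within a 1.5-fold difference in either direction. The same held for 18703 of all 19938 genes and for 9305 of the 9969 genes at or above the median level. Among the members, the bounds of the intervals farthest from 0 were −0.50 for Dnajc10, a disulfide reductase gene, and 0.33 for Dnajb9. The median difference of the 52 was −0.054, compared with −0.0010 over all genes and −0.037 over the 9969 genes at or above the median level. Most members were brighter still. At a mean log2 level of 8 to 10 the median was −0.049 for 26 members and −0.050 for all 3428 genes. From 10 to 12 it was −0.037 for 18 members and −0.034 for all 663 genes. From 6 to 8 it was −0.088 for 6 members and −0.031 for all 5451 genes. Differences were below 0 for 36 of the 52 (69.2%), compared with 50.3% of all genes and 60.5% of the brighter genes. This small downward lean was absent without Flt3 KO replicate 2, where the member median was 0.00090 and 26 of 52 differences were below 0. At an unadjusted p under 0.05 in limma, 12 members were lower and 0 higher (23.1%), compared with 17.1% of all genes, of which 10.1% were lower and 6.95% higher. Among the brighter genes 25.5% had such a p, 17.1% lower and 8.47% higher. Replicate values did not overlap for 21 members (40.4%), 18 lower and 3 higher, compared with 47.2% of all genes and 56.3% of the brighter genes. Of the 52, 51 lay above the median gene of the array on each array, the exception being Trib3, which lay near it.

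**Figure D1:**
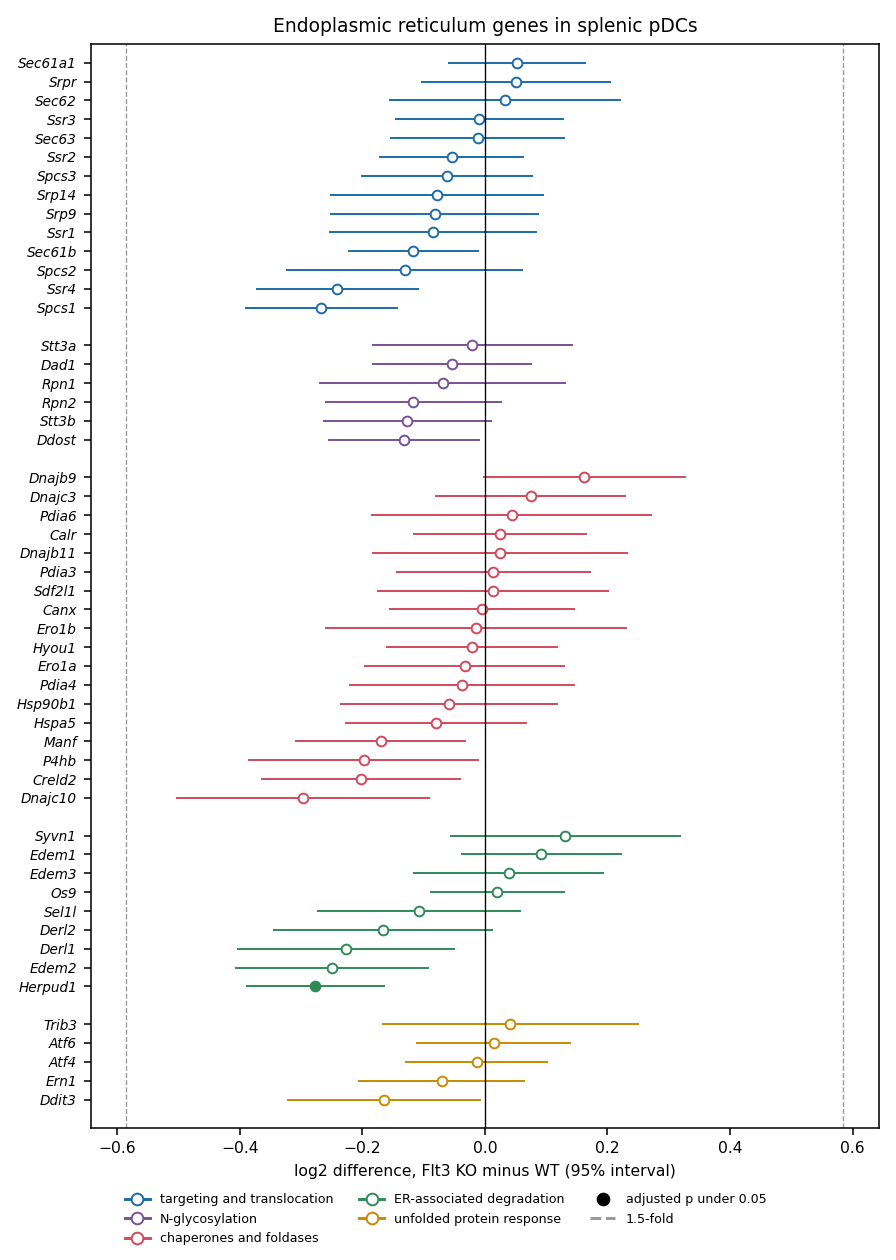
Log2 difference, Flt3 KO minus WT, of the 52 measured ER genes (x axis), one gene per row, grouped and coloured by sub-function, with limma's 95% interval. The filled point, Herpud1, is the gene past the adjusted threshold, and all intervals lie inside the dashed lines at 1.5-fold.

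The size of the lean also depended on scaling. After quantile normalization between arrays the member median was −0.014, 29 of 52 differences were below 0, and before adjustment 6 members were lower and 2 higher (11.5% and 3.85%). Of all genes 50.8% were then below 0, 8.61% lower and 7.4% higher. With every array shifted to a common median the member median was −0.090, with 43 below 0 (82.7%), 15 lower (28.8%) and 0 higher before adjustment, and of all genes 61.1% were below 0, 13.9% lower and 4.96% higher. The median of all genes moved to −0.0027 under quantile normalization and −0.037 under centring. Among all genes past the adjusted threshold, 215 were higher and 261 lower as deposited, 217 and 443 after centring, and 281 and 233 after quantile normalization. The share of genes called, beside the members called, was 3.31% after centring (2 members), 2.58% after quantile normalization (0), 2.28% with a constant of 16 added before the log (1), 7.26% of the genes at or above the median level tested alone (3), 2.33% with probe sets averaged per gene (1), 0.964% of all probe sets tested together (0), 0.542% without the intensity trend (0), 3.0% with robust variance (2) and 1.88% with the replicate number as a block (1). With 1 array left out it was 0, 0, 0.271% and 0.0100%, and 0 members were called.

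Herpud1 was the member past the threshold. It encodes an ER membrane protein that is induced by ER stress and helps assemble the HRD1 degradation complex. Its log2 intensity was 12.14 and 12.14 in Flt3 KO samples, against 12.47 and 12.36 in WT samples. The Flt3 KO replicates lay together below both WT replicates. It fell by 0.28 on the log2 scale (SE 0.048, limma adjusted p = 0.0357), or 1.21-fold, with an interval of −0.39 to −0.17. With any 1 of the 4 arrays left out, the differences ran from −0.34 to −0.22. The call was lost in those fits, where few or no genes of the whole array passed, so that loss is not particular to Herpud1. It was also lost under quantile normalization (limma adjusted p = 0.0854).

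Nothing else in the ER-associated degradation group passed (1 lower, 0 higher and 8 not passed of 9 measured, median −0.11). Edem2, which encodes a mannose-trimming protein that marks misfolded glycoproteins, read 9.89 and 9.76 in Flt3 KO samples, against 10.14 and 10.02 in WT samples, without overlap. Its difference was −0.25 (adjusted p = 0.121). Derl1, a gene of the Derlin family of the retrotranslocation channel, read 9.14 and 9.14 in Flt3 KO samples, against 9.47 and 9.27 in WT samples, a difference of −0.23 (adjusted p = 0.187). Its paralogue Derl2 had a difference of −0.17 (adjusted p = 0.321). The scaffold and ligase genes of the complex did not pass. Sel1l, the scaffold gene, had 7.57 and 7.49 in Flt3 KO samples, against 7.65 and 7.62 in WT samples. Syvn1, which encodes the ubiquitin ligase HRD1, had 8.99 and 9.20 in Flt3 KO samples, against 8.99 and 8.93 in WT samples, with overlapping groups and a difference of 0.13 (interval −0.056 to 0.32). Edem1, Edem3 and the lectin gene Os9 had differences of 0.092, 0.039 and 0.020. The Edem genes had differences of both signs.

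Targeting and translocation held 14 measured genes, of which 0 passed (3 lower and 0 higher before adjustment, at p under 0.05), with a median of −0.070. The median was −0.030 without WT replicate 2, −0.035 without Flt3 KO replicate 2, −0.11 without Flt3 KO replicate 1 and −0.031 under quantile normalization. The lowest p was that of Spcs1, the gene of a small membrane subunit of signal peptidase. It read 10.47 and 10.44 in Flt3 KO samples, against 10.77 and 10.67 in WT samples, and the groups did not overlap. Its difference was −0.27 (SE 0.052), and the adjusted p of 0.0515 lay at the edge of the threshold. It was past the threshold after centring (limma adjusted p = 0.0248), with robust variance (0.0377) and with dim genes left out (0.025). It did not pass under quantile normalization, without the intensity trend or with all probe sets tested together, where 0 members passed. The other signal peptidase genes, Spcs2 and Spcs3, had overlapping groups and differences of −0.13 and −0.062.

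The translocon-associated protein complex, which sits beside the Sec61 channel, also had unequal differences among its subunits. Ssr4, its delta subunit gene, read 9.47 and 9.52 in Flt3 KO samples, against 9.70 and 9.77 in WT samples, below both WT values. The difference was −0.24 (SE 0.056, limma adjusted p = 0.0884), with 0.0458 when dim genes were left out. Like Spcs1, it did not pass under quantile normalization, without the intensity trend or with all probe sets tested together. The other subunit genes, Ssr1, Ssr2 and Ssr3, had differences of −0.084, −0.055 and −0.0092 with overlapping groups.

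No gene of the channel itself passed. Sec61a1, which encodes the pore, had 10.90 and 10.83 in Flt3 KO samples, against 10.80 and 10.82 in WT samples, a difference of 0.053 (interval −0.058 to 0.16). Sec61b, a small channel subunit gene, had 10.79 and 10.82 in Flt3 KO samples, against 10.94 and 10.90 in WT samples, a difference of −0.12 (adjusted p = 0.25). Its other probe sets gave differences of −0.065 and −0.031. The auxiliary translocation genes Sec62 and Sec63 lay at 0.033 and −0.011. Upstream of the channel, the signal recognition particle genes Srp9 and Srp14, whose products slow elongation, had −0.082 and −0.078, and the receptor gene Srpr 0.051, with overlapping groups for all of them. The sign of Srp9 turned without WT replicate 2 (0.016). A dimmer second probe set of Srp9 gave −0.13. It read 7.60 and 7.62 in Flt3 KO samples, against 7.79 and 7.69 in WT samples, without overlap.

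All 6 oligosaccharyltransferase genes had differences below 0, from −0.13 to −0.020, and 0 of 6 passed (1 lower and 0 higher before adjustment, at p under 0.05). Ddost, a subunit gene of the shared core, read 9.78 and 9.78 in Flt3 KO samples, against 9.95 and 9.88 in WT samples, without overlap. Its difference was −0.13 (adjusted p = 0.261). Stt3b, which encodes the catalytic subunit that can glycosylate after translocation, had 10.26 and 10.16 in Flt3 KO samples, against 10.29 and 10.37 in WT samples, a difference of −0.13 (adjusted p = 0.324). Its paralogue Stt3a, the catalytic subunit gene of the channel-coupled complex, had −0.020 with overlapping groups. The remaining core subunit genes Rpn1, Rpn2 and Dad1 had −0.069, −0.12 and −0.054. The group median was −0.093. It was −0.044 without WT replicate 2, where Stt3a (0.017) and Dad1 (0.011) lay above 0 and 4 of 6 below, and −0.139 without Flt3 KO replicate 1. Without Flt3 KO replicate 2 it was −0.077, also with 4 of 6 below 0, and under quantile normalization it was −0.054.

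Chaperones and foldases were the largest group, with 18 measured, 0 passed and a median of −0.018; under quantile normalization the median was 0.020. At an unadjusted p under 0.05 there were 4 lower and 0 higher. Hspa5, which encodes BiP, the ER Hsp70 and the classical target of the unfolded protein response, had 11.29 and 11.12 in Flt3 KO samples, against 11.26 and 11.30 in WT samples. Its difference was −0.080 (interval −0.23 to 0.066). Hsp90b1, whose product is an ER Hsp90 that folds toll-like receptors and integrins, had 12.01 and 11.80 in Flt3 KO samples, against 11.90 and 12.02 in WT samples, a difference of −0.059 (interval −0.24 to 0.12). For both genes Flt3 KO replicate 1 lay level with the WT samples and replicate 2 below them, and without replicate 2 the differences were 0.0056 and 0.049. Hyou1, a nucleotide exchange factor gene for BiP, differed by −0.021. The lectin chaperone genes Calr and Canx, which hold glycoproteins for folding, differed by 0.025 and −0.0045; the sign of Calr turned under centring (−0.012).

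Co-chaperones and secreted ER stress proteins had differences of both signs. Dnajc10 read 7.37 and 7.29 in Flt3 KO samples, against 7.72 and 7.53 in WT samples, a difference of −0.30 (SE 0.088, adjusted p = 0.15). Creld2, a secreted ER stress protein gene, read 9.34 and 9.17 in Flt3 KO samples, against 9.47 and 9.46 in WT samples, a difference of −0.20 (adjusted p = 0.198). Manf, which encodes a secreted neurotrophic factor that binds BiP, had a difference of −0.17 (adjusted p = 0.206). In each of these the groups did not overlap. Dnajb9, a BiP co-chaperone gene known as a target of XBP1, lay on the other side, with 10.42 and 10.23 in Flt3 KO samples, against 10.17 and 10.15 in WT samples, a difference of 0.16 (SE 0.070, adjusted p = 0.299). Dnajc3, Dnajb11 and Sdf2l1, further BiP partner genes, had 0.075, 0.024 and 0.014 with overlapping groups.

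Among disulfide isomerases and oxidases, P4hb, which encodes the archetypal protein disulfide isomerase, read 10.08 and 9.85 in Flt3 KO samples, against 10.20 and 10.12 in WT samples, a difference of −0.20 (adjusted p = 0.266). Pdia3, the isomerase gene that works with the lectin chaperones, differed by 0.014, Pdia4 by −0.037 and Pdia6 by 0.044. A dim second probe set of Pdia4 (mean 5.39, below the median gene) gave 0.41, of opposite sign. The oxidase genes Ero1a and Ero1b, which recharge the isomerases, had −0.033 and −0.015.

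Of the 5 sensor and transcription factor genes of the unfolded protein response, 0 passed (1 lower and 0 higher before adjustment; median −0.014). Ern1, the gene of the sensor and ribonuclease IRE1, had 9.04 and 9.06 in Flt3 KO samples, against 9.16 and 9.09 in WT samples, a difference of −0.070 (interval −0.21 to 0.064). Atf6 had 10.63 and 10.63 in Flt3 KO samples, against 10.56 and 10.67 in WT samples, and Atf4, the effector of the PERK branch, had 10.05 and 10.02 in Flt3 KO samples, against 10.05 and 10.04 in WT samples. Their differences were 0.014 and −0.014, and both signs turned under another scaling, Atf6 under centring (−0.022) and Atf4 under quantile normalization (0.028). Ddit3, which encodes the stress-induced factor CHOP, read 8.20 and 8.29 in Flt3 KO samples, against 8.38 and 8.43 in WT samples, without overlap, a difference of −0.16 (adjusted p = 0.27). Trib3, an ATF4 and CHOP target gene, differed by 0.041 at a level near the median gene, and its sign turned under quantile normalization (−0.0052).

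**Figure D2:**
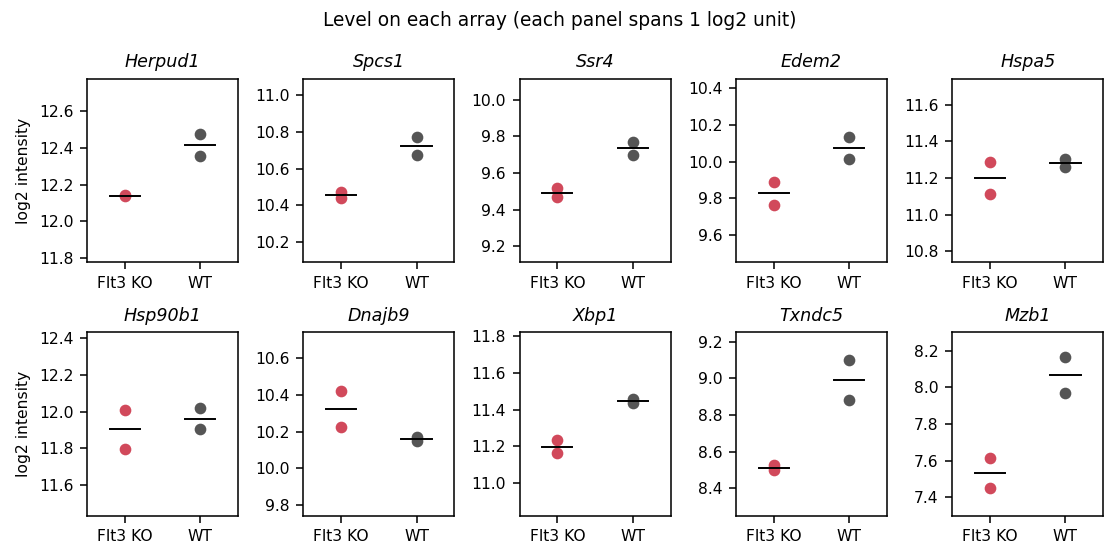
Log2 intensity (y axis) of 10 ER genes on each Flt3 KO (left) and WT (right) array, with the group mean as a line. Herpud1, Spcs1, Ssr4, Edem2, Xbp1, Txndc5 and Mzb1 have both Flt3 KO values below both WT values, Dnajb9 has both above, and Hspa5 and Hsp90b1 overlap.

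Promoter elements and differences can be set side by side. The 9 members with an ERSE had differences from −0.20 (Creld2) to 0.13 (Syvn1), a median of −0.0045 and 0 calls (in limma 1, Creld2, was lower and 0 higher before adjustment). The other 43 measured members, including those with no window, had a median of −0.062 and 1 call. Only exact spellings were counted, so this split depends on that rule. The window of Herpud1, the gene called, holds CCAAT, 9 bases and CCACA, which differs from an ERSE in its last base. Herpud1 and Dnajb11, both with ERSE-II, had differences of −0.28 and 0.024.

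The Flt3 KO samples also differed from each other. Flt3 KO replicate 2 lay below Flt3 KO replicate 1 in 42 of 52 members (80.8%), compared with 48.6% of all genes and 40.6% of the genes at or above the median level. The median gap was −0.068. Between the WT samples, replicate 2 lay below replicate 1 in 26 of 52. The share was highest among chaperones and foldases, with 16 of 18 lower in Flt3 KO replicate 2 and a median gap of −0.12, and was seen in 12 of 14 targeting and translocation genes, 5 of 6 oligosaccharyltransferase genes, 6 of 9 degradation genes and 3 of 5 sensors and factors. P4hb (−0.23), Hsp90b1 (−0.22), Dnajb9 (−0.20), Pdia4 (−0.19), Canx (−0.17) and Hspa5 (−0.17) had large gaps, named here after their values were seen, and Syvn1 ran the other way (0.21). For 29 members (55.8%) the gap between the Flt3 KO replicates was wider than the difference between the genotypes, compared with 48.6% of all genes. A gap between single arrays varies more than a difference between means of 2, so the 55.8% alone does not weigh replicates against genotype. Relative to the WT mean, the median member lay at 0.00090 in Flt3 KO replicate 1 and at −0.10 in replicate 2. Of the 13 monocyte and macrophage markers, 2 were lower in Flt3 KO replicate 2 than in replicate 1, with a median gap of 0.47, and their part in the ER values was not tested.

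**Figure D3:**
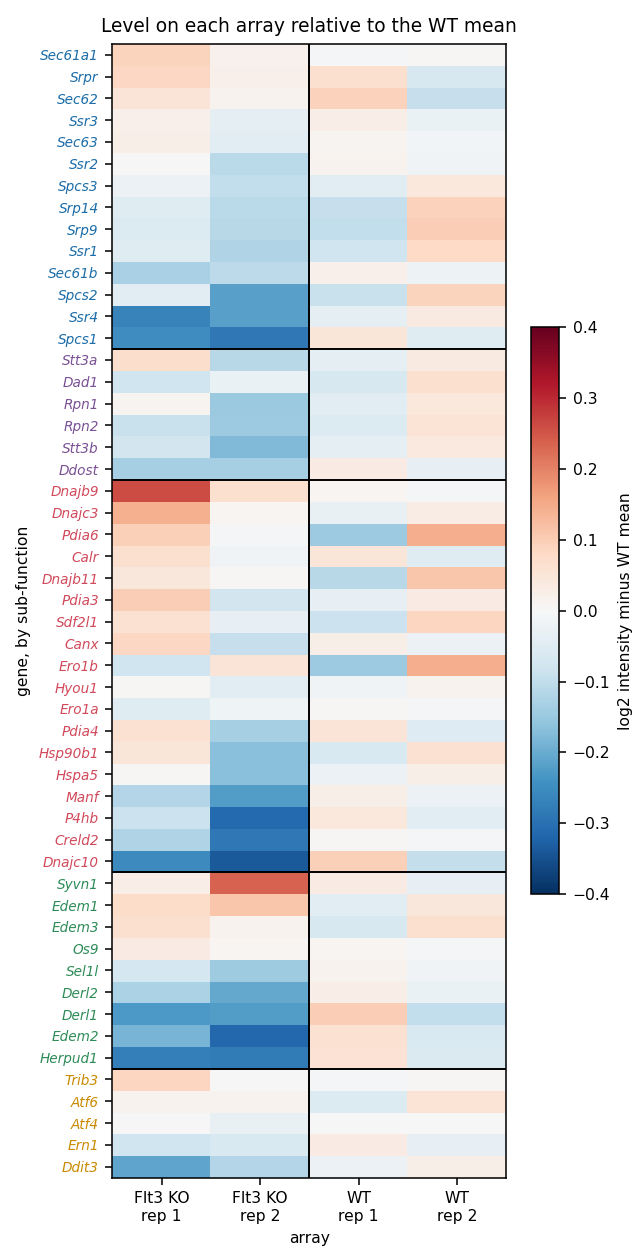
Log2 intensity of each of the 52 genes minus its WT mean (colour), by array (columns, Flt3 KO left of WT), with genes grouped by sub-function. Flt3 KO replicate 2 lies below replicate 1 for 16 of 18 chaperones and foldases, and Herpud1, Edem2, Derl1, Spcs1, Ssr4 and Dnajc10 are low on both Flt3 KO arrays.

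**Figure D4:**
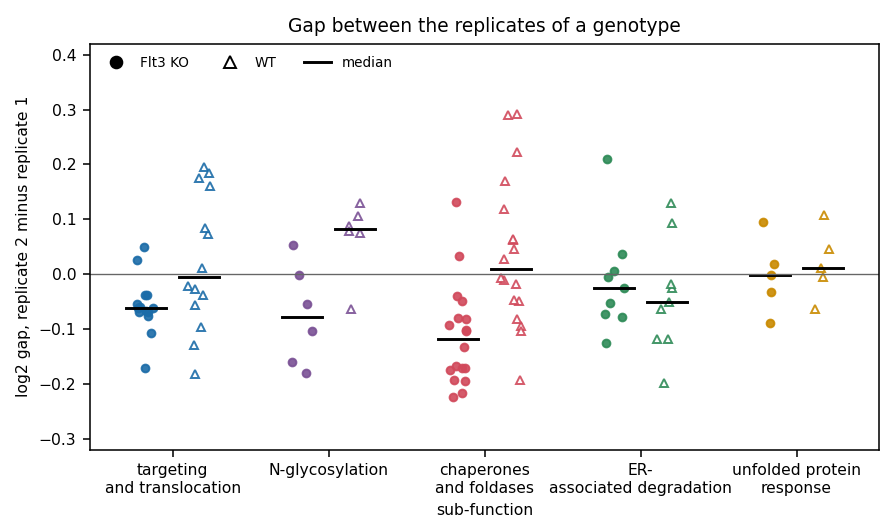
Log2 gap between replicates, replicate 2 minus replicate 1 (y axis), for each gene of the 5 sub-functions (x axis), Flt3 KO as filled circles left of WT as open triangles, with medians as lines. For chaperones and foldases 16 of 18 Flt3 KO gaps lie below 0, and 9 of 18 WT gaps do.

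Further ER genes outside the 54 were read in the same fit. Of 147 listed, 137 were measured, 3 fell, 0 rose and 134 did not pass. In the same fit 2.39% of all genes and 4.34% of the brighter genes were called. The median of the 137 was −0.064, compared with −0.0010 over all genes and −0.037 over the brighter genes. In limma at an unadjusted p under 0.05 there were 33 lower and 4 higher. The shares there were 10.1% lower and 6.95% higher among all genes, and 17.1% and 8.47% among the brighter genes. The genes that fell were Xbp1, Txndc5 and Mzb1. Xbp1, which encodes the transcription factor activated by IRE1 and needed for the secretory apparatus of plasma cells, had 11.23 and 11.16 in Flt3 KO samples, against 11.46 and 11.43 in WT samples. It fell by 0.25 (SE 0.045, limma adjusted p = 0.0423), and the call was lost with the replicate number as a block (0.0531) and under quantile normalization (0.0652). Spliced and unspliced Xbp1 forms are not separated in these gene values.

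Txndc5, a disulfide isomerase gene, had 8.50 and 8.53 in Flt3 KO samples, against 9.10 and 8.88 in WT samples, and fell by 0.48 (SE 0.081, limma adjusted p = 0.0349). Mzb1, whose product is a partner of the ER Hsp90 in antibody-secreting B cells and pDCs, had 7.61 and 7.45 in Flt3 KO samples, against 8.16 and 7.97 in WT samples, and fell by 0.53 (SE 0.093, limma adjusted p = 0.0363). Both Flt3 KO values lay below both WT values for the 3 genes. With any 1 of the 4 arrays left out, every difference of these genes stayed below 0. As with Herpud1, their calls were lost in those fits, where few or no genes passed. The prolyl isomerase gene Fkbp11 had a difference of 0.25 (adjusted p = 0.212) at a level below the median gene. Eif2ak3, the gene of the sensor PERK, had −0.091, and Ppp1r15a, which encodes a phosphatase subunit that ends the response, −0.036. Both had overlapping groups.

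Txndc5, Xbp1 and Mzb1 also stand on the list of plasma cell markers, of which 2 of 12 rose and 3 fell. The markers that rose were Jchain (1.20), the gene of the joining chain of polymeric antibodies, and the surface receptor gene Slamf7 (0.94). The 7 plasma cell markers outside the ER lists had a summed intensity of 4873 and 4688 in Flt3 KO samples, against 3783 and 4044 in WT samples. Of these 7, Prdm1 (0.19) and Irf4 (0.19) also lay above 0, and Sdc1 (−0.15), Tnfrsf17 (−0.22) and Ell2 (−0.066) below 0, without passing. The part of other cells in the ER values was not tested. In these sorted samples fewer cells of a type and less RNA per cell cannot be told apart.

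By function, the median differences were −0.090 for 21 targeting and translocation genes (0 passed in limma, 8 lower and 0 higher before adjustment), −0.095 for 23 glycosylation genes (0 passed, 4 lower and 0 higher), −0.056 for 27 chaperones and foldases (2 fell, 0 rose, 7 lower and 1 higher before adjustment), −0.064 for 22 degradation genes (0 passed, 6 lower and 0 higher), 0.021 for 25 genes of the unfolded protein response and its targets (1 fell, 0 rose, 5 lower and 3 higher before adjustment) and −0.056 for 19 genes of vesicle export (0 passed, 3 lower and 0 higher). For comparison, in limma 10.1% of all genes and 17.1% of the brighter genes were lower before adjustment, and 6.95% and 8.47% higher. Among the further genes Flt3 KO replicate 2 lay below replicate 1 in 72 of 137 (52.6%), and the difference between the lists was not tested.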

How the data were processed

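The values for 30177 probe sets on 4 arrays are linear intensity as deposited by the authors. How background, probe summary and scaling were handled is not given in the sources used here. Per the labels' protocols, RNA from collagenase-digested spleens was amplified with an Ambion kit and biotin-labelled. Median intensities ran from 55.1 to 57.2. Of the probe sets, 21789 had 1 gene symbol in the platform annotation, 1621 had several and 6767 had none. The brightest 1-symbol probe set stood for each of 19938 genes. The deposited intensities were converted to log2 with no added constant or filter and fitted in limma 3.58.1 (R 4.3.3, lmFit and eBayes with trend), checked on simulated data. The number of arrays limits the precision. The members and lists were chosen with earlier results of these data known. Named by rule were Flt3, members past the threshold, the 3 lowest p of each sub-function, the lowest of each finer class, a fixed set of ER genes, and further ER genes and markers past the threshold. Dnajb9, Derl2, Syvn1, Edem1 and the other members named were chosen after their values were seen. Alternatives are in the closing section.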

Additional observations from a re-analysis of the deposited data

How the results depend on the processing

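The limits are those of 2 arrays per genotype and an unstated upstream scaling. The brighter genes had a median difference of −0.037, the cause of which was not tested. With all probe sets tested together 140 genes were higher and 151 lower, and without the intensity trend 61 and 47; 443 were lower after centring and 440 lower with dim genes left out. ER members past the threshold and lower numbered 2 after centring, 3 with dim genes left out, 2 with robust variance, and 0 under quantile normalization, without the trend and with all probe sets (Herpud1 adjusted p = 0.0854, 0.198 and 0.0774). The degradation median was −0.14 after centring and −0.060 under quantile normalization, and that of sensors and factors was −0.050 after centring and −0.042 with dim genes left out. With 1 array left out, 0 to 45 genes were higher and 0 to 9 lower, 0 to 0 members were lower (limma, 4 to 11 members and 2068 to 2689 genes at an unadjusted p under 0.05), and these fits have 1 residual degree of freedom, in which a lone array is assumed to vary like the other group. The member median ran from −0.10 (without Flt3 KO replicate 1) to 0.00090 (without Flt3 KO replicate 2), targeting and translocation from −0.11 to −0.030, N-glycosylation from −0.139 to −0.044, degradation from −0.14 to −0.071, chaperones and foldases from −0.080 to 0.047, and sensors and factors from −0.039 to 0.0025. With 1 array left out the sign of 24 of the 52 members turned in at least 1 fit. Among the genes named by rule, signs turned for Atf4 (0.028 under quantile normalization, −0.030 to 0.0025 with 1 array left out), Atf6 (−0.022 after centring, −0.040 to 0.069), Calr (−0.012 after centring, −0.022 to 0.072), Trib3 (−0.0052 under quantile normalization, −0.0029 to 0.086), Ppp1r15a (0.019 under quantile normalization, −0.16 to 0.090), Hspa5 (−0.17 to 0.0056), Hsp90b1 (−0.17 to 0.049), Srp9 (−0.18 to 0.016) and Eif2ak3 (−0.22 to 0.033). None of these genes had passed, and the cause was not tested. The 12 members with an unadjusted p under 0.05 in limma kept their sign in all 13 alternatives. They were picked by that p on these same arrays, and several alternatives leave a difference unchanged, so this adds no support. Same-numbered samples did not deviate together (r = −0.017 across genes). The labels do not say whether they were handled as pairs, and this r cannot settle it. With the replicate block 194 genes were higher and 181 lower, 1 member was lower, and the member median was −0.054.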
